A study of Mus musculus with 12 samples.

Results

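miR-219 and miR-338 are microRNAs of the oligodendrocyte lineage, and their small RNA reads were counted in mouse hippocampus after electroconvulsive shock (ECS). A deposited tag, which is a distinct insert sequence with its read count, was counted as a member when its whole length matched the annotated hairpin of Mir219a-1, Mir219a-2, Mir219b or Mir338 exactly. These are 4 of the 1174 mouse miRNA hairpins in GENCODE release M21. The hairpins have 7 arms between them, because the 5′ arms of Mir219a-1 and Mir219a-2 give mostly the same tags and were kept as 1 arm. Of these 7 arms, 6 had at least 1 count, out of 1066 miRNA arms with a count in the whole series. Each level below is a percent of all counts that match miRNA hairpins exactly in the same library.

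The study holds 12 small RNA libraries from the hippocampus of individual male C57BL/6NCrl mice aged 6 to 8 weeks. Mice were untreated (NT) or were sampled 0.5, 1, 3, 6 or 24 h after ECS, a brief current that sets off a seizure and fires neurons throughout the brain. Each of these 6 groups has 2 libraries. The libraries numbered 1 form time course 1 and those numbered 2 form time course 2, with 6 libraries each, and a library is named by its time and its number (3h-1). The untreated mice received no shock, and the labels name no sham treatment, transgene or other agent. Whole hippocampus was used, so fewer oligodendrocytes and less of a miRNA in each oligodendrocyte cannot be told apart.

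miRNAs are cut from hairpin precursors by Drosha and Dicer, and either arm of the hairpin (5p or 3p) can be loaded into Argonaute, where bases 2 to 8, the seed, pair with target mRNAs. miR-219 and miR-338 rise when oligodendrocyte precursors leave the cell cycle and differentiate into myelinating cells. There they are known to repress genes that hold the precursor state, among them Pdgfra, Sox6 and Hes5. In adult brain they are used as marks of oligodendrocytes rather than of neurons.

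The smallest library, 6h-2, held 1897490 accepted reads and the largest, 0.5h-2, held 7657222. Exact miRNA counts were fewest in 6h-1 (439336) and most numerous in NT-2 (4282006). The time courses stood apart. Exact miRNA counts were 25.6% ± 8.23 (SD, n = 6) of the accepted reads in time course 1 and 57.5% ± 6.36 (SD, n = 6) in time course 2. NT-1 stood apart from all other libraries, with 51.4% of its miRNA counts in tags of 18 or 19 nt against 0.911% to 16.9% in the others. Tags shorter than 18 nt were not analysed here. The untreated libraries are placed in the time courses by the replicate numbers of their labels. The study's mapping summary keeps that order for them, but its table of library composition gives them the other way round. The share of long tags placed each in the range of the time course it is labelled for, as 4.85% of the miRNA counts of NT-1 and 34.3% of those of NT-2 were in tags of 22 nt or more, inside ranges of 1.25% to 13.5% and 29.0% to 49.4%. The miRNA share of accepted reads did the same. It was 29.05% for NT-1 and 56.5% for NT-2, inside ranges of 10.1% to 32.7% and 50.9% to 69.6%. Values that turn when the untreated libraries are exchanged are given both ways. An exchange sets each untreated library among libraries unlike it in both shares, which can widen the spread within a time course. Calls lost by the exchange therefore cannot decide whether those calls hold. Neuronal markers were present in every library, with miR-124 at 1.015% to 26.2% and miR-128 at 2.68% to 8.88%. miR-124 was highest in NT-1, where miR-128 was lowest.

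On GRCm38, Mir219a-2 (ENSMUSG00000065485.1) spans chr2:29845631-29845727 on the minus strand, between genes and 629 bp from the nearest protein-coding gene, Urm1. Mir219b (ENSMUSG00000105010.1) lies within the same stretch on the opposite strand, at chr2:29845647-29845711. Mir219a-1 (ENSMUSG00000065555.1) spans chr17:34024983-34025092 on the minus strand, 303 bp from Ring1. Mir338 (ENSMUSG00000065600.1) spans chr11:120014765-120014862 on the minus strand, in intron 7 of transcript Aatk-201, which has 14 exons and the same strand. Aatk encodes a kinase of the nervous system. The hairpins are shown because nearly all counts come from their stems. They are the RefSeq sequences (GRCm38.p6), 5′ to 3′, with the most abundant exactly matching tag of each arm in capitals.
Mir219a-2: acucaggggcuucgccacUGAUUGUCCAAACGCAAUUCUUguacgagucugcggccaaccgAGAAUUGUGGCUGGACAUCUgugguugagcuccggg
Mir219a-1: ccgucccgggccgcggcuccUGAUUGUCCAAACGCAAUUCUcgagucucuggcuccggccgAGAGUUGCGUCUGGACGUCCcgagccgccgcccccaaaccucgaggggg
Mir338: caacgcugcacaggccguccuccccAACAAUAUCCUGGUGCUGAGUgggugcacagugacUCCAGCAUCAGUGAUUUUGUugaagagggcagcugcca

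The tags that carried the counts are shown next, as deposited (T for U), 5′ to 3′, with the seed in capitals. For miR-219a-2-3p 2 lengths are given, since these lengths separated the time courses. For miR-338-3p the tag that begins 1 nt later is given as well, since it carries another seed.
miR-219a-2-3p, 20 nt: aGAATTGTggctggacatct
miR-219a-2-3p, 22 nt: aGAATTGTggctggacatctgt
miR-219a-5p, 22 nt: tGATTGTCcaaacgcaattctt
miR-219a-5p, 21 nt: tGATTGTCcaaacgcaattct
miR-219a-1-3p, 20 nt: aGAGTTGCgtctggacgtcc
miR-219b-3p, 21 nt: aGAATTGCgtttggacaatca
miR-338-3p, 20 nt: tCCAGCATcagtgattttgt
miR-338-3p, 1 nt later: cCAGCATCagtgattttgtt
miR-338-5p, 21 nt: aACAATATcctggtgctgagt

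The 6 arms have 6 different seeds at their main starts. Over the 22 nt from the main start, miR-219a-1-3p and miR-219a-2-3p differ at 7 positions, counted from 1 at the 5′ end: G4A, C8T, T10G, G17A, C20T, C21G and G22T, of which the first 2 lie in the seed. Their counts can therefore be told apart. On the 5p arm the hairpins first differ at position 22 (C22T), so a 5p tag of 21 nt or less fits both loci.

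A single arm held nearly all of the counts. Over the 12 libraries miR-219a-2-3p had 331256 counts, which is 98.3% of the 336976.5 counts of all members. It ranked 19 among the 1066 arms by its mean level. miR-219a-5p had 3317 counts, miR-338-3p 1314, miR-338-5p 865 and miR-219a-1-3p 215. miR-219b-3p had 9.5 (1 tag was shared equally with Mir219c) and miR-219b-5p had 0, which allows up to 3 counts per library. The mean level was 0.976% ± 0.450 (SD, n = 12) for miR-219a-2-3p, 0.0115% ± 0.00330 for miR-219a-5p and 0.00456% ± 0.00172 for miR-338-3p. It was 0.00285% ± 0.00212 for miR-338-5p and 0.000730% ± 0.000311 for miR-219a-1-3p. miR-219a-2-3p lay above miR-219a-5p in all 12 libraries, at least 25.2-fold, and miR-219a-5p lay above miR-338-3p in all 12. miR-338-3p and miR-338-5p did not keep their order, as the 3p arm was higher in 9 of 12 libraries. miR-338-5p lay above miR-219a-1-3p in 11 of 12. These are orders of reads, and how well each sequence was ligated and amplified was not measured.

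miR-219a-2-3p ran at 0.255% in NT-1, 0.734% in 0.5h-1, 1.08% in 1h-1, 1.39% in 3h-1, 0.826% in 6h-1 and 0.720% in 24h-1. In time course 2 it ran at 0.822% in NT-2, 1.498% in 0.5h-2, 1.80% in 1h-2, 1.04% in 3h-2, 0.372% in 6h-2 and 1.18% in 24h-2. The lowest libraries were NT-1 and 6h-2, and the highest was 1h-2, 7.06-fold above NT-1. In time course 1 all 5 libraries after ECS lay above the untreated one, by 2.83-fold to 5.44-fold. In time course 2, 4 of 5 did, by up to 2.19-fold, and 6h-2 lay at 0.452 of NT-2. These counts became 3 of 5 in time course 1 and 5 of 5 in time course 2 with the untreated libraries exchanged. Counting error was small beside these gaps, with a Wilson 95% interval of 0.245% to 0.264% for NT-1 and of 0.814% to 0.831% for NT-2. The 2 untreated libraries differed 3.23-fold from each other.

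NT-1 differed in other values too. Tags of 18 or 19 nt made up 48.1% of its miR-219a-2-3p counts, against 1.09% to 8.53% in the other 11 libraries. The red blood cell list (miR-451, miR-144 and miR-486) summed to 0.194% there, against at most 0.125% elsewhere. That sum was nearly all miR-144 (0.191%), while miR-451 (0.000468%) and miR-486 (0.00272%) had their lowest values of the 12 libraries in NT-1. All 3 had counts in every library. The part of these in the low level of miR-219a-2-3p was not tested.

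miR-219a-5p, the strand that most work on oligodendrocyte differentiation has followed, ran at 0.00993%, 0.0131%, 0.0107%, 0.00593%, 0.0166% and 0.0128% from NT-1 to 24h-1 in order of time, and at 0.00827%, 0.0124%, 0.0158%, 0.00786%, 0.0148% and 0.01003% from NT-2 to 24h-2. Its lowest value in each time course was at 3 h, where miR-219a-2-3p was highest in time course 1. The full range was 2.80-fold, narrower than that of miR-219a-2-3p. The mean was 0.0115% in each time course (SD 0.00359 and 0.00333, n = 6 each). At 6 h the level rested on 73 counts in 6h-1 and 195 in 6h-2.

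Tags long enough to tell the loci apart made up 53.8% of the miR-219a-5p counts. Of these 1783 counts, 1756 came from Mir219a-2 and 27 from Mir219a-1, so Mir219a-2 gave 98.5% (Wilson 95% interval 97.8% to 99.0%). On the 3p arms Mir219a-2 gave 99.9% (99.93% to 99.94%). These intervals cover counting error only, since the reads carry no molecular identifiers. The 3p tags of Mir219a-1 stayed at 0 to 31 counts per library, with 0 in 6h-2, which allows up to 0.000227% there. Elsewhere they lay between 0.000511% and 0.00125%.

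miR-338-3p, the arm usually named as the oligodendrocyte miRNA, ran at 0.00506%, 0.00388%, 0.00610%, 0.00253%, 0.00728% and 0.00293% from NT-1 to 24h-1, on 32 to 83 counts each. From NT-2 to 24h-2 it ran at 0.00250%, 0.00775%, 0.00416%, 0.00381%, 0.00409% and 0.00463%, on 54 to 302 counts. In time course 2 all 5 libraries after ECS lay above NT-2, by 1.52-fold to 3.10-fold. In time course 1 only 2 of 5 lay above NT-1. With the untreated libraries exchanged these counts turned round, to 5 of 5 in time course 1 and 1 of 5 in time course 2. The groups of untreated and treated libraries overlapped. The mean was 0.00463% ± 0.00186 (SD, n = 6) in time course 1 and 0.00449% ± 0.00175 (SD, n = 6) in time course 2.

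miR-338-5p ran over a 16.9-fold range, or 7.70-fold without 6h-1, whose 2 counts lie under the floor of 3. The other arms with a count in every library ran over 2.80-fold to 7.06-fold. It ran at 0.00244%, 0.00769%, 0.00279%, 0.000999%, 0.000455% and 0.00626% from NT-1 to 24h-1, and at 0.00276%, 0.00128%, 0.00319%, 0.00258%, 0.00151% and 0.00219% from NT-2 to 24h-2. The highest levels were those of 0.5h-1 (135 counts) and 24h-1 (139 counts). Their Wilson intervals, 0.00650% to 0.00911% and 0.00530% to 0.00739%, overlapped each other and lay above those of the other 10 libraries. These were also the libraries of time course 1 with the longest tags, as 60.5% and 57.3% of their miRNA counts were in tags of 21 nt or more against 23.2% to 35.7% in the other 4. In time course 2 that share was 59.1% (6h-2) to 65.9% (1h-2), yet miR-338-5p lay at only 0.00128% to 0.00319%. The main tag of miR-338-5p is itself 21 nt long, and the part of tag length in its level was not tested. In 6h-1 the arm held 2 counts, and both came from a tag that begins at base 6 of the hairpin, upstream of the mature arm.

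**Figure D1:**
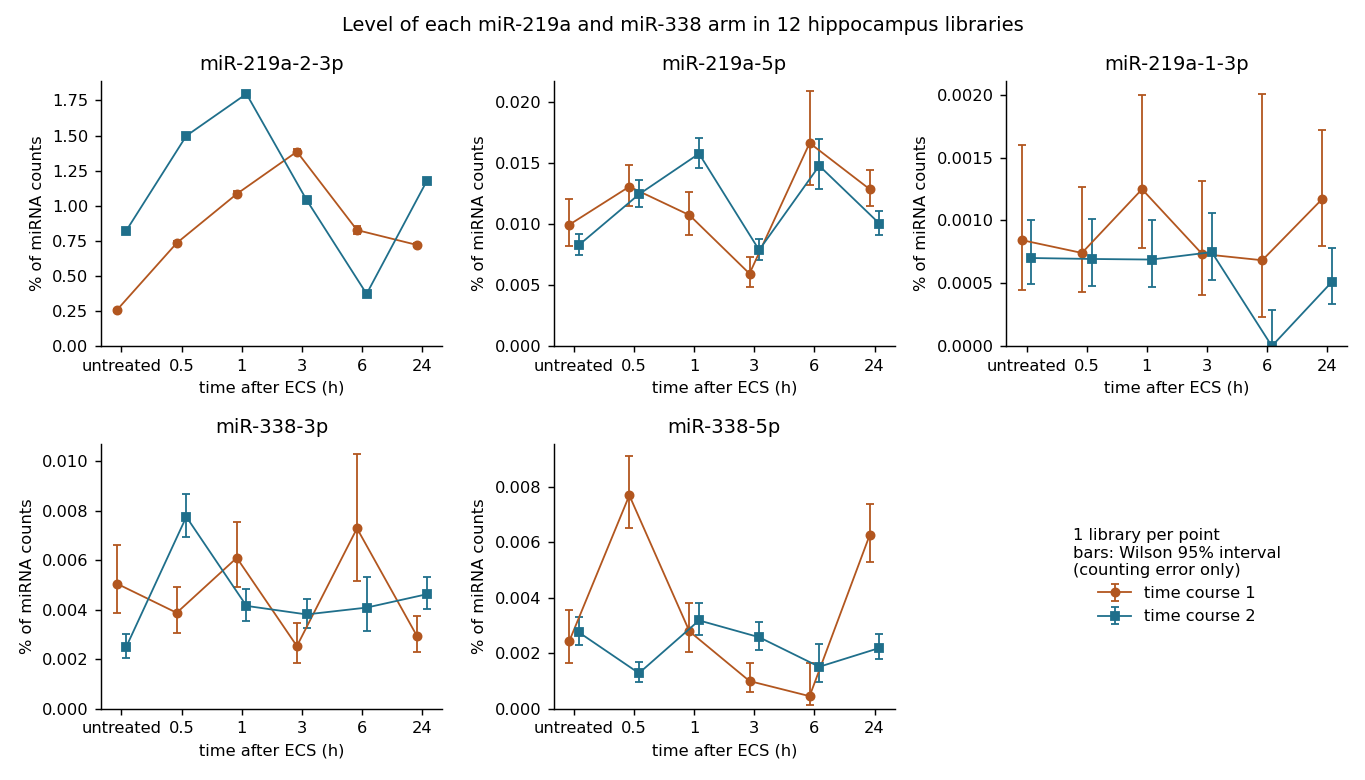
Level of each tested arm as a percent of the exact miRNA counts (y axis, a separate linear scale per panel) against time after ECS (x axis), with 1 library per point and Wilson 95% intervals for counting error. miR-219a-2-3p began at 0.255% and 0.822% in the untreated libraries and peaked at 3 h in time course 1 (1.39%) and at 1 h in time course 2 (1.80%), and the rarer arms crossed between the time courses.

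Both strands of these loci are annotated as miRNA genes. Mir219b lies opposite Mir219a-2 over 65 bases, and it had 10 counts (in 5 libraries) against 334546 for Mir219a-2, in which the 5p tags that fit Mir219a-1 as well are included. Mir219c lies opposite Mir219a-1 over 60 bases and had 6 counts in 4 libraries. Mir3065, opposite Mir338 over 87 bases, had 0 counts, which allows up to 3. The protocol ligates adapters to each end of the RNA in turn, so strand is kept. All counts of Mir219b came from time course 2, the deeper one.

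The ratio of the 3p arm to the 5p arm does not depend on how libraries are scaled. For miR-219a-2 the 3p counts were set against all miR-219a-5p counts. The ratio was 25.6 in NT-1, 56.2 in 0.5h-1, 101 in 1h-1, 234 in 3h-1, 49.7 in 6h-1 and 56.1 in 24h-1. In time course 2 it was 99.5, 121, 114, 133, 25.2 and 117 from NT-2 to 24h-2. The 3 h library was highest in each time course. On the log2 scale (pseudocount 0.5) the mean was 6.07 ± 1.08 (SD, n = 6) in time course 1 and 6.49 ± 0.911 (SD, n = 6) in time course 2, and time course 2 was the higher at 4 of 6 times. An exact permutation test that swapped the libraries of a time point in all 64 ways gave a two-sided p of 0.34375, or 0.540 after adjustment over 11 such tests. Such a test cannot go below 0.03125 here. The difference was -0.234 with the untreated libraries exchanged.

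miR-338 used both arms. Its ratio of 3p to 5p counts was 2.08, 0.504, 2.18, 2.53, 16.0 and 0.468 from NT-1 to 24h-1, where the value of 16.0 rests on the 2 counts of 6h-1 described above. In time course 2 it was 0.907, 6.04, 1.30, 1.48, 2.70 and 2.11. The 5p arm was ahead in 0.5h-1, 24h-1 and NT-2. The log2 means were 0.849 ± 1.77 (SD, n = 6) and 0.978 ± 0.954 (SD, n = 6), a difference well within the spread (exact permutation test, two-sided, p = 0.90625, adjusted 0.997). The sign of that difference turned with tags counted by their first 18 nt (-0.0117) and with tags near the main start of the arm only (-0.258).

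**Figure D2:**
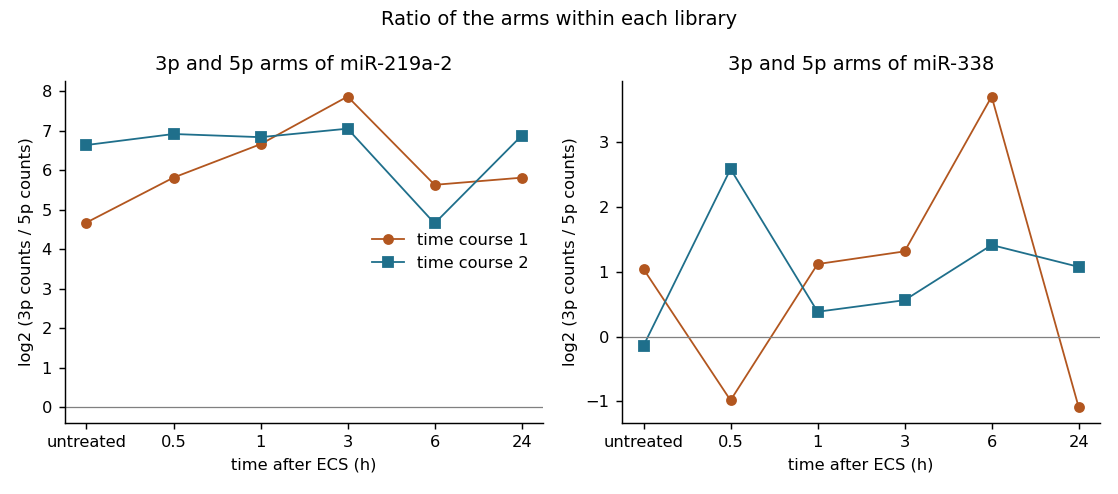
log2 of the ratio of 3p to 5p counts within each library (y axis) for miR-219a-2 and miR-338 against time after ECS (x axis), with 1 library per point. miR-219a-2 ran from 4.65 to 7.86, while miR-338 fell below 0, the line of equal arms, in 3 libraries.

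The length of the miR-219a-2-3p tags separated the time courses. The 20 nt tag of miR-219a-2-3p had 55737 counts in time course 1 and 100256 in time course 2, while the 22 nt tag had 7153 and 147036. The share of the arm in tags of 22 nt or more was 12.7%, 17.8%, 8.43%, 2.94%, 0.661% and 16.5% from NT-1 to 24h-1. From NT-2 to 24h-2 it was 44.4%, 60.5%, 60.4%, 58.7%, 41.7% and 54.2%. The groups did not overlap, and the means were 9.84% ± 7.06 (SD, n = 6) and 53.3% ± 8.34 (SD, n = 6). For miR-219a-5p the means were 19.7% ± 19.1 and 60.5% ± 12.6, and for miR-338-3p 7.004% ± 10.7 and 33.4% ± 15.2 (SD, n = 6 each). Here the groups overlapped. miR-219a-5p ran from 0.0% to 43.7% and from 35.9% to 69.8%, and miR-338-3p from 0.0% to 26.15% and from 14.8% to 56.0%. Each of these 3 arms had the longer tags in time course 2 at all 6 times, with p = 0.03125 each by the exact permutation test (two-sided), the smallest possible. None passed after adjustment of the exact tests over the 11 tests (p = 0.115 each). Each already had the smallest possible p, so no larger difference in these arms could have lowered the adjusted value. The adjustment therefore cannot decide on these differences. With 21 nt as the limit, the p of miR-338-3p was 0.0625 (exact permutation test). With the untreated libraries exchanged, the differences were 32.9, 25.9 and 18.9 points, with p of 0.0625, 0.1875 and 0.15625 (exact permutation tests). miR-338-5p and miR-219a-1-3p were not tested for length. For miR-219a-1-3p the share was 30.8% in 0.5h-1, 26.9% in 24h-1 and 0.0% in the rest of time course 1. In time course 2 it was 14.3% to 25.9%, with no count in 6h-2. Over all miRNAs the same share went from 7.46% ± 4.67 to 41.8% ± 8.18 (SD, n = 6 each), and it was higher in time course 2 at 6 of 6 times. The end that varied was the 3′ end. At their 5′ end 98.9% to 99.97% of the miR-219a-2-3p counts of a library began at the same base.

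**Figure D3:**
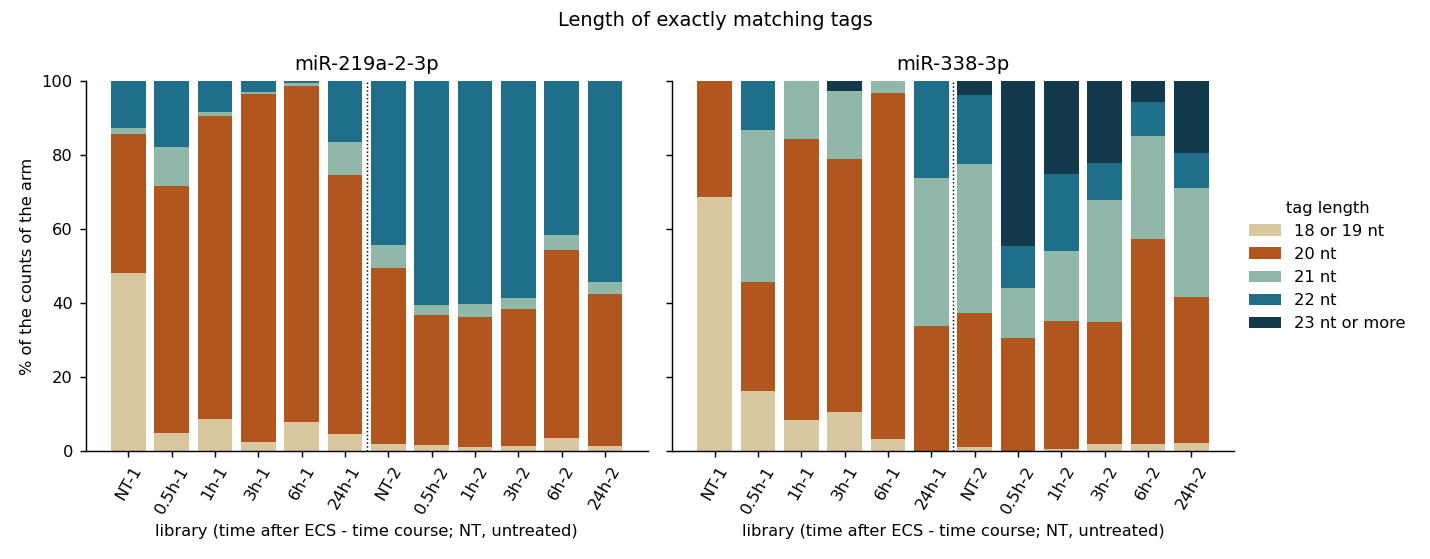
Share of the counts of miR-219a-2-3p (left) and miR-338-3p (right) in tags of each length (y axis, percent of the arm) in the 12 libraries (x axis). Tags of 22 nt or more made up at most 17.8% of miR-219a-2-3p in time course 1 and at least 41.7% in time course 2, and NT-1 alone had 48.1% in tags of 18 or 19 nt.

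miR-338-3p had a less fixed 5′ end. The main start held 62.5% to 92.6% of its counts per library, and the tag that begins 1 nt later, whose seed is shifted by that base, held 5.56% to 37.5%. The highest share was in 6h-1, on 12 of 32 counts. In sum, 162 of 1314 counts (12.3%) began there. miR-219a-2-3p began 1 nt later in at most 0.0876% of the counts of a library. Within the Mir219a-2 loop, tags that begin at base 42 of the hairpin had 77 counts and were included in the 3p arm.

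Tags with 1 base added to the 3′ end beyond the hairpin sequence fall outside the exact matches. Among tags that share the main 18 nt start, an added A made up 1.74% for miR-219a-2-3p, 1.49% for miR-219a-5p and 10.2% for miR-338-3p over all libraries. An added U made up 0.832%, 0.505% and 1.83%. For miR-219a-5p this leaves out any U added to the 21 nt tag, which gives the same bases as the 22 nt tag of Mir219a-2. miR-338-3p had the largest share of added A of these 3, with 24h-1 highest (21.5%) and 6h-2 lowest (0.0%). Its mean was 13.4% ± 7.21 (SD, n = 6) in time course 1 and 8.66% ± 5.60 (SD, n = 6) in time course 2 (exact permutation test, two-sided, p = 0.25, adjusted 0.540). For miR-219a-2-3p an added A made up 1.98% ± 0.668 and 1.73% ± 0.245 (SD, n = 6 each; exact permutation test, p = 0.46875, adjusted 0.645). The 6 tests of added bases gave unadjusted p values of 0.25 to 1.0 (exact permutation tests).

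Differences between libraries in level were tested with edgeR's quasi-likelihood test on the counts of 470 arms, each with at least 10 counts in 2 libraries, with TMM scaling and Benjamini-Hochberg adjustment. 5 of the 7 member arms passed that filter. Between the time courses, 152 of 470 arms were called (32.3%), 94 higher and 58 lower in time course 2. With the untreated libraries exchanged between the time courses, 0 arms were called. Of the 5 member arms 0 were called, and 1 had an unadjusted p under 0.05. miR-219a-2-3p had a log2 fold change of 1.06 (SE 0.458, 95% interval 0.0800 to 2.04) in favour of time course 2, with an adjusted p of 0.0849 by edgeR's quasi-likelihood test. It was 0.0507 by DESeq2 and 0.0441 by edgeR without 6h-2, where the log2 fold change was 1.17. It was 0.335 with the untreated libraries exchanged (edgeR's adjusted p = 0.800). The log2 fold changes of the others were 0.640 (SE 0.436) for miR-219a-5p, 0.605 (SE 0.431) for miR-338-3p, 0.467 (SE 0.660) for miR-338-5p and -0.231 (SE 0.593) for miR-219a-1-3p, and edgeR's adjusted p ran from 0.264 to 0.781.

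These values depend on the scaling. The median of all 470 arms was 0.290 with TMM and -0.305 when libraries were scaled by their total miRNA count, and the called arms were then 49 higher and 113 lower. With total scaling miR-219a-2-3p was at 0.447 (SE 0.457), miR-219a-5p at 0.0155, miR-338-3p at -0.0211 and miR-338-5p at -0.173, so the signs of the miR-338 arms turned. The member median was 0.605 with TMM and -0.0211 with total scaling. The time courses also differed in miRNAs used as markers of other cells. The paper reports a batch effect between these replicates, whose source in library construction or sequencing it could not determine. Because of that effect, the paper held accurate changes in miRNA level unlikely to come from these reads, and measured them by PCR instead. With the untreated libraries exchanged, 0 of 470 arms were called, these markers included. The smooth muscle and pericyte list (miR-143-3p and miR-145a-3p) summed to 6.27% to 14.4% in time course 1 and 0.543% to 1.62% in time course 2, and both were called lower. That sum was nearly all miR-143-3p, with means of 9.48% and 1.055%, while miR-145a-3p had means of 0.0118% and 0.00176%. miR-142, of microglia and leukocytes, was called lower as well, with its list at 0.0994% to 0.979% and 0.0157% to 0.232%, and miR-223 at 0 in at least 1 library. In the red blood cell list (0.0292% to 0.194% and 0.0143% to 0.0231%) miR-144 alone was called, lower (log2 fold change -3.82), while miR-451 and miR-486 lay at 1.59 and 0.582 and were not called. Of the neuronal markers miR-124 and miR-128, 0 of 2 were called. Their part in the member values was not tested.

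**Figure D4:**
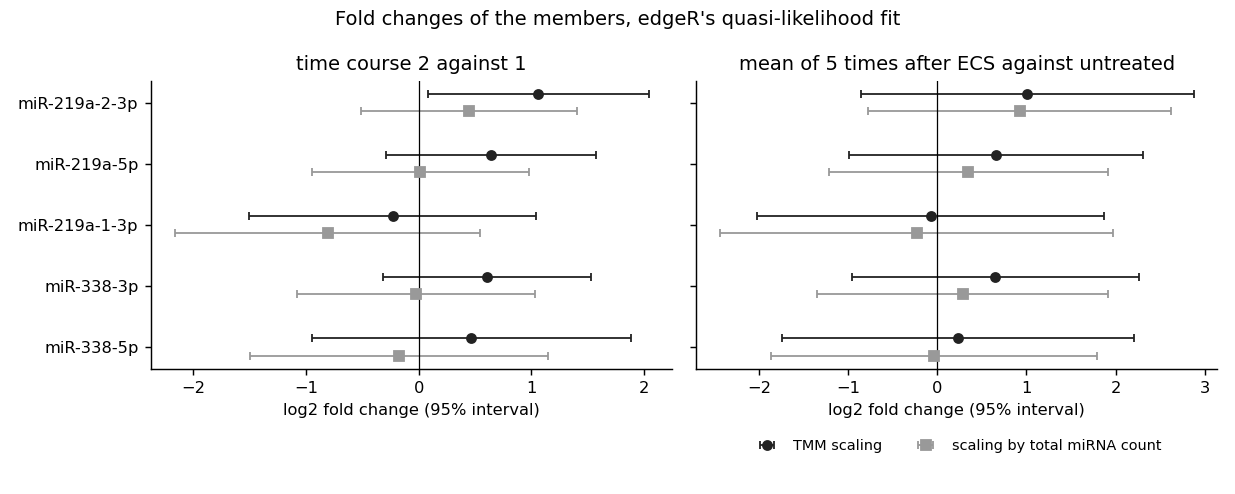
log2 fold changes (x axis) of the 5 tested member arms with 95% intervals from edgeR's quasi-likelihood fit, for time course 2 against 1 (left) and for the mean of the 5 times after ECS against untreated (right), under TMM scaling (circles) and scaling by total miRNA count (squares). miR-219a-2-3p lay at 1.06 and 1.01 with TMM, only its TMM interval in the left panel stayed clear of 0, and total scaling moved the left panel towards lower values.

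After ECS no arm was called by edgeR at any time or for the mean of the 5 times (0 of 470 in each, 0.0%). At an unadjusted p under 0.05 there were 9, 2, 10, 9 and 7 arms, from the earliest time to the latest, and 24 for the mean. DESeq2 called 1, 0, 2, 0 and 0 arms and 1 for the mean. With the time course as a block, DESeq2 called 2, 0, 5, 3 and 0 and 1 for the mean, and edgeR called 0 in each. No member was among them. For miR-219a-2-3p the log2 fold change against untreated was 1.03 (SE 1.04) at 0.5 h, 1.16 (SE 1.04) at 1 h, 1.58 (SE 1.06) at 3 h, 0.119 (SE 1.03) at 6 h and 1.16 (SE 1.04) at 24 h. All of these come from edgeR without the block, where each adjusted p was at least 0.9887. With the block, edgeR put miR-219a-2-3p at 1.98 at 3 h (SE 0.798, 95% interval 0.273 to 3.69). Its p there was 0.026 unadjusted and 0.7475 adjusted by edgeR's quasi-likelihood test. Without the block, the mean of miR-219a-2-3p over the 5 times was 1.01 (SE 0.864, 95% interval -0.861 to 2.88), an interval that runs from 0.550-fold to 7.35-fold. Without NT-1 the mean was 0.292 and without NT-2 it was 2.67, so this value rests on which untreated library it is set against. At 6 h the sign turned without NT-1 (-0.583), with no filter on low counts (-0.104) and with tags counted by their first 18 nt (-0.0871).

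The mean change after ECS was 0.660 (SE 0.761) for miR-219a-5p, 0.651 (SE 0.743) for miR-338-3p, 0.236 (SE 0.912) for miR-338-5p and -0.0757 (SE 0.899) for miR-219a-1-3p, on the log2 scale. The intervals of miR-219a-5p and miR-338-3p ran from 0.504-fold to 4.95-fold and from 0.515-fold to 4.79-fold, so a rise of 4-fold lay within both. The median over the 5 members was 0.651 and that over all 470 arms 0.130. With total scaling these medians were 0.284 and -0.0856, and miR-338-5p stood at -0.0355. All of these changes are relative to the other miRNAs of a library, so a fall shared by most miRNAs would not show in them. The paper's PCR arrays, scaled to other small RNAs, put most profiled miRNAs in a class that was lower at its late times.

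Other miRNAs of the oligodendrocyte lineage were counted beside the members (miR-23a, miR-138, miR-32, miR-7a, miR-17, miR-19b and miR-9, the arm with more counts of each). Of 7, 6 were tested, and 3 of these 6 were called between the time courses, against 32.3% of all arms. With the untreated libraries exchanged between the time courses, 0 of 470 arms were called, so these 3 calls were lost too. That exchange goes against the labels, long-tag shares and miRNA shares of both libraries, so it cannot decide whether these calls hold. miR-7a-5p was higher in time course 2, at a mean of 0.371% against 0.160% (log2 fold change 1.49, SE 0.521, edgeR's adjusted p = 0.0422). miR-17-3p was higher too, at 0.00881% against 0.00449% (1.39, SE 0.466, edgeR's adjusted p = 0.0342). miR-138-5p, known in early differentiation, was lower, at 0.272% against 1.41% (-1.80, SE 0.462, edgeR's adjusted p = 0.0109). The other tested arms also lay lower but were not called: miR-19b-3p (-1.69, SE 0.754), miR-23a-3p (-0.873, SE 0.461) and miR-9-5p (-0.53, SE 0.428). miR-9-5p, a miRNA of neural progenitors, averaged 1.44% ± 0.692 (SD, n = 12) and was not called. The list median was -0.702, against 0.290 for all arms. After ECS 0 of the 6 were called by edgeR. These levels come from whole hippocampus, and which cells gave them was not tested.

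The pattern of miR-219a-2-3p across the 12 libraries was most like that of miR-103-3p, with a Pearson r of 0.771 and a Spearman rho of 0.587 on log2 levels, among 209 other arms whose counts reached 10 in every library. miR-485-5p followed (r 0.734, rho 0.469), and then miR-107-3p (r 0.686, rho 0.252), whose tags share most of their sequence with those of miR-103. For miR-219a-5p the most alike were miR-3068-5p (r 0.780), miR-137-3p (0.656) and miR-17-3p (0.649). The strands of miR-219a did not follow each other, with r = -0.126 and rho = -0.0699 over the 12 libraries. Within the time courses r was -0.243 and -0.00477. miR-219a-5p and miR-338-3p had r = 0.533. The points share their libraries and depth, and these values are descriptions only.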

How the data were processed

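Small RNA of about 18 to 24 nt, per the labels, was cut from gels, ligated to adapters, amplified and sequenced on the Illumina Genome Analyzer IIx by the authors, who removed adapters with miR-Intess. The deposited values are raw read counts per distinct tag, not normalized and with replicates kept apart. The aligner settings are not given in the sources used here, and no alignment was taken from the authors. Tags of at least 18 nt were matched over their full length to miRNA hairpins (GENCODE M21, GRCm38). Arms were set by the middle of the tag, and tags of several miRNAs were split equally, which concerned 0.899% to 4.83% of the miRNA counts of a library. Mature and hairpin sequences came from RefSeq (GRCm38.p6), which matched all 4 hairpins. miR-219a-2-3p has no mature entry there, so its deposited tags are shown.

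edgeR 4.0.16 (quasi-likelihood, TMM, R 4.3.3) was fitted to all 12 libraries, with the time point as covariate for the time courses and without a block for ECS, and Benjamini-Hochberg adjustment ran over all arms tested (threshold 0.05). DESeq2 1.42.0 was an alternative. Ratios, lengths and added bases were compared by exact flips within time points (Python 3.11.15). Same-numbered libraries deviated together from their group means (mean r 0.519 over 15 pairs of groups, 0.308 to 0.786), so the numbers pair the libraries, and the block changed no call of edgeR. No libraries were duplicates (lowest chi-square per degree of freedom 65.7 over 66 pairs). The labels do not say whether replicates came from separate litters or days, so p-values measure the spread between these libraries. Alternatives were other scaling, filters, matching, lengths, pseudocounts, the block, leaving out each library and, chosen after seeing the data, exchanging the untreated libraries. The members and lists were chosen with earlier results of these data known. Named arms were all member arms with a tag, the 3 arms most like each of the 2 most abundant members, and the lists given in the report. The endothelial marker, miR-126-3p, ranged from 0.00406% to 0.0221% and was not called.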

Additional observations from a re-analysis of the deposited data

Results flagged for a closer look

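Of 32 sets of 6 libraries (a member value in 1 time course), 8 had a library far from the other 5 by Dixon's criterion. Chance gives about 1 in 20 for independent, normally spread values. These sets share libraries and some rest on few counts, so that rate is only a rough guide. In time course 2, 6h-2 was the lowest in 3 of the 8. Its miR-219a-1-3p level was 0.0% against 0.000511% to 0.000748% in the others. Its log2 ratio of miR-219a-2-3p to miR-219a-5p was 4.652 against 6.634 to 7.048, and its share of miR-219a-5p in tags of 22 nt or more was 35.9% against 60.9% to 69.8%. 6h-2 had the fewest accepted reads of the series. 3h-2 had the most added bases in 2 sets, with an added A on 2.21% of the miR-219a-2-3p tags (others 1.55% to 1.72%) and an added U on 2.02% of the miR-219a-5p tags (others 0.0% to 0.576%).

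In time course 1, NT-1 had an added U on 1.29% of the miR-219a-2-3p tags (others 0.141% to 0.565%) and an added A on 9.45% of the miR-219a-5p tags (others 0.0% to 1.11%), the latter on 127 counts. 0.5h-1 had an added U on 4.94% of the miR-338-3p tags, on 81 counts, where the other 5 libraries had 0.0%. With those 5 at 0.0%, any share above 0.0% would have been flagged.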

How the results depend on the processing

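A member arm was called in 1 of 164 fits (miR-219a-2-3p between the time courses without 6h-2, adjusted p = 0.0441 by edgeR, log2 fold change 1.17). The 152 arms called between the time courses were 85 with at least 10 counts in every library, where 212 arms were tested, and 93 to 155 with 1 library left out (93 without 1h-1). DESeq2 called 222 and no filter gave 161. With the untreated libraries exchanged, chosen after seeing the data, the count was 0, and no block fit after ECS called an arm. After ECS the counts of 0 became 1 (0.5 h), 2 (3 h) and 1 (mean) with DESeq2, 2 (0.5 h), 5 (3 h), 3 (6 h) and 1 (mean) with DESeq2 and the replicate block, an alternative chosen after seeing the data, and 1 (3 h) and 5 (mean) with no filter. Leaving out 1 library gave 0 to 1 for the mean (1 without NT-2) and 0 at each time. The replicate block changed no call in edgeR. There, miR-219a-2-3p had a log2 mean change of 1.27 (SE 0.652, adjusted p = 0.752).

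Some log2 fold changes turned in sign, all of arms not called. Between the time courses these were miR-219a-1-3p with the first 18 nt matched (0.0116) and without 6h-1 (0.0457, leave-out range -0.536 to 0.0457), miR-338-3p with total scaling (-0.0211), and miR-338-5p with total scaling (-0.173) and in 3 of 12 leave-outs (range -0.0583 to 0.993, without 3h-1 -0.0230, 3h-2 -0.00998, 6h-2 -0.0583). For the mean after ECS these were miR-338-5p with total scaling (-0.0355), with no filter (-0.00640) and in 4 leave-outs (-0.279 to 0.759, without NT-1 -0.106, 0.5h-1 -0.0781, 3h-2 -0.124, 6h-2 -0.279), and miR-219a-1-3p in 2 (range -1.19 to 0.174, without NT-2 0.174, 6h-2 0.0318). At single times all alternatives were followed for miR-219a-2-3p only. At 6 h miR-219a-2-3p turned with no filter (-0.104), with the first 18 nt (-0.0871) and without NT-1 (-0.583, leave-out range -0.583 to 1.78). With total scaling other arms turned at 3 h: miR-219a-5p (0.259 to -0.398), miR-338-3p (0.512 to -0.244), miR-338-5p (0.123 to -0.527) and miR-219a-1-3p (0.571 to -0.0534). At 0.5 h miR-219a-1-3p turned with it too (0.0355 to -0.101).

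The miR-338 ratio difference turned with the first 18 nt (-0.0117) and with tags within 5 nt of the main start (-0.258, chosen after seeing the data), and ran from -0.559 to 0.613 with 1 time point left out, below 0 without 0.5 h (-0.559) and 24 h (-0.278). The miR-219a-2 ratio difference ran from 0.111 to 0.698. With 5 time points p cannot go below 0.0625, so the length differences, 41.0 to 45.8 points for miR-219a-2-3p, 36.1 to 45.3 for miR-219a-5p and 22.5 to 31.1 for miR-338-3p, cannot pass an unadjusted p of 0.05 there. With the untreated libraries exchanged these differences were 32.9, 25.9 and 18.9 points (exact permutation tests, p = 0.0625, 0.1875 and 0.15625), the miR-219a-2 ratio difference was -0.234, and the added A on miR-219a-5p was 2.18 points higher in time course 2 (exact permutation test, p = 0.03125, not adjusted). At a limit of 21 nt miR-338-3p differed by 33.8 points (exact permutation test, p = 0.0625). The added A on miR-219a-5p ran from -1.35 to 0.887 points (0.887 without the untreated pair) and the added U from -0.238 to 0.443 (-0.238 without 3 h). The cause of these moves was not tested. As shares of all accepted reads, the mean levels were 0.418% (miR-219a-2-3p), 0.00474% (miR-219a-5p), 0.000271% (miR-219a-1-3p) and 0.00181% (miR-338-3p). Counts of 2 to 302 per library limit the miR-338 arms, and 0 to 31 limit miR-219a-1-3p.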
